A study of Mus musculus with 6 samples.

Results

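The genes of glycolysis and of the response to low oxygen were followed in whole lung buds of mouse embryos in which the Wnt receptor gene Fzd2 was targeted in the epithelium. The set was a list of 37 symbols, and a gene counted as measured when at least 1 probe set of the array carried that symbol and no other; the brightest such probe set over all arrays stood for the gene. By this rule 32 of the 37 genes were measured, out of 22180 genes on the arrays, while Gpi1, Aldoa, Eno1, Bnip3l and Ankrd37 had no probe set of their own symbol alone and were not analysed here. The measured genes were 14 of 17 glycolytic enzymes, 8 of 8 transporters and flux regulators, and 10 of 12 other hypoxia targets.

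Expression was measured on 6 microarrays of lung tissue taken at E12.5, from 3 control samples of genotype Shh cre/+ and 3 mutant samples of genotype Fzd2Flox/Flox; Shh cre/+. Both groups therefore carried 1 copy of Cre at the Shh gene, which is active in lung epithelium, and the mutants carried in addition 2 floxed copies of Fzd2. The design asked which genes depend on Fzd2 in the epithelium, but each array held RNA of the whole bud, in which fewer cells of a type and less RNA per cell cannot be told apart. The labels call the replicates biological without saying how many lungs each holds, so all p-values measure only the spread between these samples. All values are log2 expression values, a difference is mutant minus control with limma's standard error (SE), and an adjusted p is limma's, adjusted over all 22180 genes by Benjamini-Hochberg.

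The median probe set of an array was at 7.29 to 7.32, and 3 arrays per group limit the precision of every value. Fzd2 ran from 9.57 to 9.82 on control and from 9.07 to 9.67 on mutant arrays, so the groups overlapped (difference -0.29, SE 0.15, adjusted p = 0.475). The value of 9.07 was that of mutant replicate 2, while mutant replicates 1 and 3 were at 9.67 and 9.54, near the controls. The lung gene Nkx2-1 was at 10.05 or above on all 6 arrays. Mutant replicate 2 stood apart in genes of adipose tissue: over the 9 measured markers its mean was 8.84, against 6.72 and 6.75 on the other mutant and 6.56 to 7.08 on control arrays. That array was highest in 8 of the 9, with the largest values for Fabp4 at 12.92 and Cidec at 10.41. Cidea was at 6.54 against at most 5.97 elsewhere. Lep was at 6.44 against at most 6.42, and Ucp1 lay at 6.48 in a range of 6.29 to 6.52. The type of fat was not tested. Control replicate 1 stood apart in 7 genes of adult small intestine, with a mean of 9.495 against at most 6.45 elsewhere, and mutant replicate 1 in heart muscle genes, where it was highest in 6 of 7 with a list mean of 9.34 against at most 8.23 elsewhere. Control replicate 2 lacked Y-linked signal, with Xist at 12.07. Epithelial markers were lower on mutant arrays (10 of 10 genes, list means 9.90 to 10.06 against 10.17 to 10.32) and mesenchymal markers higher (7 of 10 genes, 10.68 to 10.73 against 10.47 to 10.50).

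Glycolysis splits glucose into pyruvate, and lactate dehydrogenase turns pyruvate into lactate when pyruvate does not enter the mitochondria. Many genes of this route are also targets of hypoxia-inducible factor (HIF), a transcription factor whose alpha subunit is hydroxylated by the oxygen-dependent EGLN enzymes and then destroyed; when oxygen is low the subunit persists and drives genes for glucose uptake, blood vessel growth, matrix hydroxylation and mitophagy. Lung buds branch and form vessels in the low oxygen of the uterus, a setting in which HIF is known to be active.

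None of the 32 genes passed the threshold of an adjusted p under 0.05 (0 by limma, where 0.0631% of all genes passed), and the smallest adjusted p was 0.149. Most mean values were nonetheless higher in mutant lungs: 27 of 32 genes, with a median difference of 0.12, where 54.8% of all genes were higher and their median difference was 0.01. At an unadjusted p under 0.05, 8 of the 32 genes (25%) were higher, where 7.34% of all genes were, and 0 were lower, where 5.15% of all genes were. These were the hexokinase gene Hk1, the phosphofructokinase genes Pfkl and Pfkp, Tpi1, Eno2, the glucose transporter genes Slc2a1 and Slc2a3, and Ndrg1. In 6 genes all 3 mutant arrays lay above all 3 control arrays (10.6% of all genes did so) and in 2 all 3 lay below (8.83% of all genes). Genes of 1 pathway read on the same arrays are not independent, and these counts are a description. The count of 8 was 3 when control replicate 3 was left out and 5 when control replicate 2 was, settings for which the share over all genes is not given.

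A single array carried much of this. Mutant replicate 2 held the highest value of 21 of the 32 genes (65.6%), where it held the highest value of 19.3% of all genes, and in 9 of them it exceeded every other array by more than 0.25. Its median over the 32 genes lay 0.24 above the control mean, against 0.06 in mutant replicate 1 and 0.06 in mutant replicate 3. Without mutant replicate 2, 20 of the 32 genes were higher, the median difference was 0.05, and 6 genes were higher at an unadjusted p under 0.05 (18.8%, where 6.37% of all genes were) with 0 lower (3.92% of all genes). Of those 6 genes, 5 were among the 8 named above: Hk1, Pfkp, Slc2a1, Slc2a3 and Ndrg1. The sixth was the aldolase gene Aldoc. The same array held the adipose tissue signal and the lowest Fzd2 value, and the part of either in these values was not tested.

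**Figure D1:**
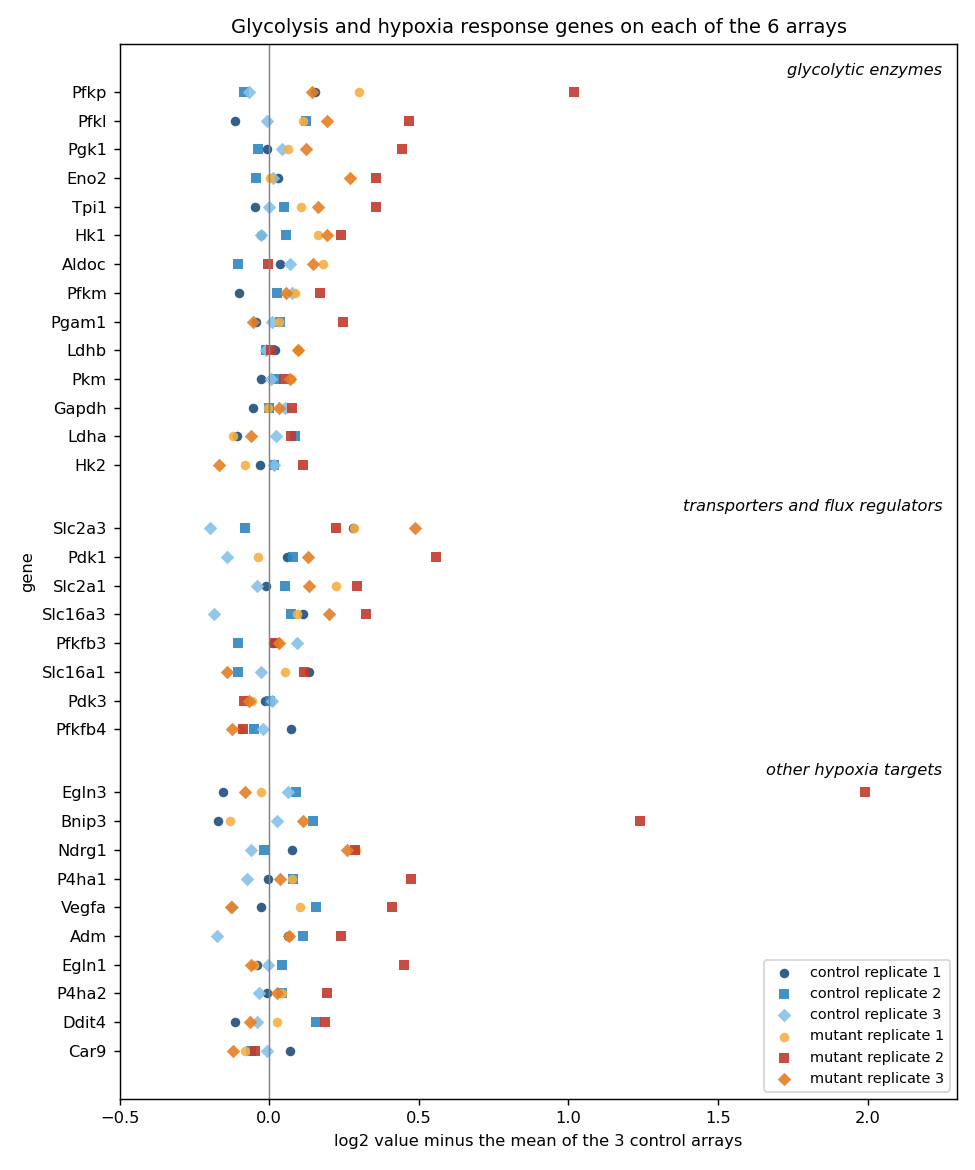
Each row is 1 gene and each point 1 array; the horizontal axis gives the log2 value minus the mean of the 3 control arrays. Blue points are control and orange or red points mutant arrays. The red squares of mutant replicate 2 lie farthest to the right in 21 of 32 rows, by 1.90 beyond any other array for Egln3, and the other mutant arrays lie close to the controls in most rows.

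Promoter sequence is shown for 6 genes that span these patterns: Slc2a1 and Tpi1, whose 3 mutant arrays all lay above the controls; Pfkp, Bnip3 and Egln3, in which mutant replicate 2 stood farthest above the other arrays; and Ldha, a textbook HIF target with a difference near 0. HIF binds the letters ACGTG or GCGTG, which were searched on both strands of each RefSeq promoter (GRCm38.p6, 250 bases before to 50 after the start of the transcript); CACGTG reads as a match on both strands and counts as 2. Each stretch below is 120 bases upstream of the start, 5′ to 3′ in the direction of the gene, chosen to hold the most matches, with matches in capitals. They lie at chr4:119108625-119108744 on the plus strand (Slc2a1), chr6:124814159-124814278 on the minus strand (Tpi1), chr13:6648788-6648907 on the minus strand (Pfkp), chr7:138909507-138909626 on the minus strand (Bnip3), chr12:54203984-54204103 on the minus strand (Egln3) and chr7:46845659-46845778 on the plus strand (Ldha, the one with more matches of 2 promoters).
Slc2a1: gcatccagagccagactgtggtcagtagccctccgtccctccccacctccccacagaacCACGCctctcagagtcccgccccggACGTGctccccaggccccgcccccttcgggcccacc
Tpi1: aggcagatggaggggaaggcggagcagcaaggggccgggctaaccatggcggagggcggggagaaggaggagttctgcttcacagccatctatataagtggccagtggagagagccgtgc
Pfkp: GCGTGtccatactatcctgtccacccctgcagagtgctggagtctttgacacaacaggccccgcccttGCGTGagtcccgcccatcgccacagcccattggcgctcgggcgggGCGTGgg
Bnip3: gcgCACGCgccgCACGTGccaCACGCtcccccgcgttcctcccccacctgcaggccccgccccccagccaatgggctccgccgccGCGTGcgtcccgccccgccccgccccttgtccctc
Egln3: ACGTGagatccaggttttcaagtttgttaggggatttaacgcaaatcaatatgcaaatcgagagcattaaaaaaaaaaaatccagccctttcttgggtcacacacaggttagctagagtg
Ldha: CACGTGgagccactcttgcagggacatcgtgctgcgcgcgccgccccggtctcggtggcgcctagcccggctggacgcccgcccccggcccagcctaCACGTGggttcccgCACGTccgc

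The Bnip3 and Ldha promoters held 5 and 7 matches, Pfkp 4, Slc2a1 2, Egln3 1 and Tpi1 0. Ldha, with the most matches of the 6, had a difference of -0.04 (SE 0.07), and Tpi1, with none in this window, one of 0.21 (SE 0.07). Of the 48 promoters of the 34 listed genes with an entry, 39 (81.25%) held at least 1 match, against 43.77% of all 32851 promoters of that length. The listed promoters were rich in CG dinucleotides, with a median of 20 against 7 over all promoters. Among the 8701 promoters with at least 20 the share was 73.6%, and their median was 28. The 48 listed promoters were not cut at 20, so 81.25% and 73.6% are shares of unlike sets and do not show what CG content accounts for. CACGTG, which other factors also bind, was in 5 of the 48 (10.42%) and in 7.15% of all promoters. It was in 11.62% of those with at least 20 CG dinucleotides, a cut that was again not applied to the 48.

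Of the 14 glycolytic enzyme genes, 12 were higher in mutant lungs and 2 lower, with a median difference of 0.11, and 0.09 without mutant replicate 2. At an unadjusted p under 0.05, 5 of the 14 were higher (35.7%, where 7.34% of all genes were), and 3 without mutant replicate 2 (21.4%, where 6.37% of all genes were). Their median deviation from the control mean was 0.08, 0.20 and 0.11 in mutant replicates 1 to 3, against -0.03, 0.02 and 0.01 in the controls.

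Hexokinase takes up glucose into the pathway by phosphorylation. Hk1, the widely expressed form, was at 7.98, 8.07 and 7.98 on control arrays and at 8.17, 8.25 and 8.20 on mutant arrays. All 3 mutants lay above all controls, by 0.20 in the means (1.148-fold, SE 0.05, adjusted p = 0.234), and the difference was 0.18 without mutant replicate 2. Hk2, the form most often named as a HIF target, had a difference of -0.04 (SE 0.07), and -0.12 (SE 0.06) without mutant replicate 2.

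Phosphofructokinase commits sugar to glycolysis and has a liver, a muscle and a platelet form. The liver form Pfkl was at 10.18, 10.42 and 10.29 in controls and at 10.41, 10.76 and 10.49 in mutants, so mutant replicate 1 lay just below control replicate 2 (difference 0.26, SE 0.10, adjusted p = 0.368). The platelet form Pfkp was at 8.57, 8.33 and 8.35 in controls and at 8.72, 9.44 and 8.56 in mutants. Mutant replicate 2 exceeded the next array by 0.72, and mutant replicate 3 lay just below control replicate 1. The difference of Pfkp was 0.49 (1.40-fold, SE 0.21, adjusted p = 0.399) with all arrays and 0.22 (SE 0.09, adjusted p = 0.484) without mutant replicate 2. The muscle form Pfkm differed by 0.10 (SE 0.06).

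Further down the route, the triosephosphate isomerase gene Tpi1 was at 12.01, 12.10 and 12.06 in controls and at 12.16, 12.41 and 12.22 in mutants. The groups did not overlap (difference 0.21, SE 0.07, adjusted p = 0.331), and without mutant replicate 2 the difference was 0.13. Pgk1, which makes the first ATP of the route, was at 12.11, 12.09 and 12.17 in controls and at 12.19, 12.56 and 12.24 in mutants, again without overlap (0.21, SE 0.10, adjusted p = 0.428). Mutant replicates 1 and 3 lay only just above the highest control, and the difference of Pgk1 without mutant replicate 2 was 0.09. Pgk1 is X-linked, and control replicate 2, the array with Xist signal, held the lowest of its 6 values, close to that of control replicate 1. For the X-linked Pdk3 the controls were at 10.75, 10.77 and 10.78, with control replicate 2 between the others. The part of sex in these values was not tested.

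The enolase gene Eno2, the form best known from neurons, was at 7.90, 7.83 and 7.89 in controls and at 7.88, 8.23 and 8.14 in mutants. Mutant replicate 1 lay among the controls and the other mutants above them (difference 0.21, SE 0.09, adjusted p = 0.399). Neuronal markers were higher on the mutant arrays in 4 of 4 measured genes, with list means of 7.35 to 7.62 against 7.16 to 7.25, but highest in mutant replicate 3, whereas Eno2 was highest in mutant replicate 2; their part in the Eno2 value was not tested. The brain-enriched aldolase gene Aldoc differed by 0.11 (SE 0.07), and by 0.16 (SE 0.07, adjusted p = 0.481) without mutant replicate 2.

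The most used reference gene of the pathway, Gapdh, differed by 0.03 (SE 0.05), and its other 2 probe sets by 0.02 and 0.01. Pkm, the pyruvate kinase gene, lay above the controls on all 3 mutant arrays by a small step (0.06, SE 0.04, adjusted p = 0.577). Of the lactate dehydrogenase genes, Ldha differed by -0.04 (SE 0.07) and Ldhb by 0.06 (SE 0.05). Pgam1 differed by 0.08 (SE 0.08) and by -0.01 without mutant replicate 2. A second, dimmer probe set of Pgam1 differed by 0.31, with 8.97, 9.20 and 9.14 in controls and 9.40, 9.59 and 9.25 in mutants.

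**Figure D2:**
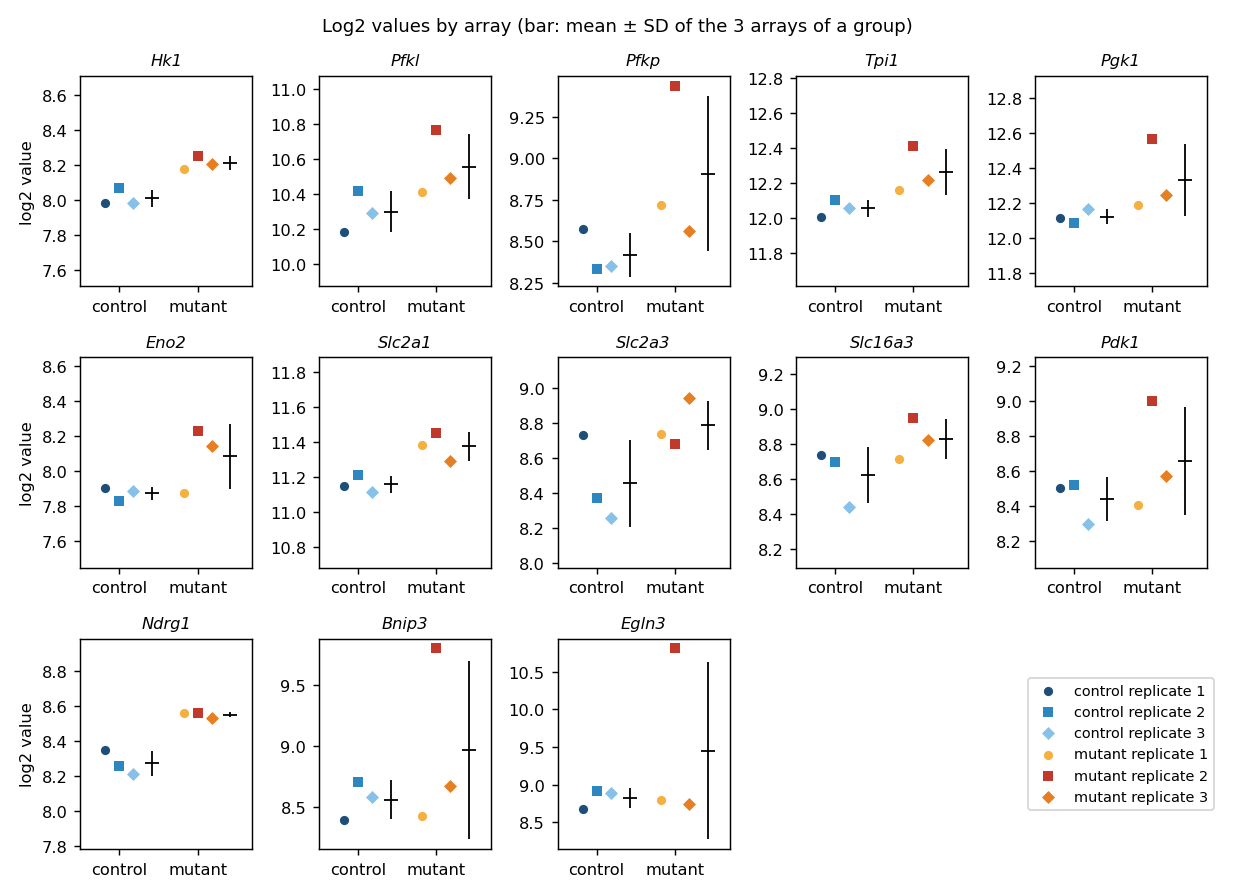
Log2 values on each array for 13 genes. They had an unadjusted p under 0.05, a difference of at least 0.26, or a direction or p that 1 array decides at a difference of at least 0.15. Genes with smaller differences that 1 array decides are not shown. Points are arrays, and black bars the mean ± SD of the 3 arrays of a group. In Hk1, Slc2a1 and Ndrg1 the mutant arrays lie together above the controls, while in Pfkp, Pdk1, Bnip3 and Egln3 mutant replicate 2 (red square) lies alone. Each panel has its own vertical axis, which does not start at 0.

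Glucose enters cells through GLUT transporters and lactate leaves through monocarboxylate transporters. Slc2a1, which encodes GLUT1, the main glucose carrier of embryonic tissue, was at 11.15, 11.21 and 11.12 in controls and at 11.38, 11.45 and 11.29 in mutants. The groups did not overlap, with a difference of 0.22 (1.16-fold, SE 0.06, adjusted p = 0.259), and the difference was 0.18 (SE 0.06, adjusted p = 0.415) without mutant replicate 2. Another probe set of Slc2a1, dim at 5.79, differed by -0.04.

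Slc2a3 encodes GLUT3, a high-affinity carrier of neurons, placenta and blood cells. It was at 8.73, 8.37 and 8.26 in controls and at 8.74, 8.68 and 8.94 in mutants, so control replicate 1 reached the level of the mutants and the groups overlapped. The difference was 0.33 (1.26-fold, SE 0.13, adjusted p = 0.363), and 0.38 (SE 0.14) without mutant replicate 2; its highest value was in mutant replicate 3. Markers of leukocytes, which express this gene, were higher on mutant arrays in 5 of 6 measured genes (list means 8.30 to 8.45 against 8.11 to 8.18). Control replicate 1, the highest control in Slc2a3, had the lowest of these list means, 8.11. The neuronal markers given above were also higher on mutant arrays in 4 of 4 genes. Their list mean was highest in mutant replicate 3, at 7.62, the array highest in Slc2a3. In control replicate 1 it was 7.22, between the other controls at 7.16 and 7.25. The part of leukocytes or of neurons in the Slc2a3 value was not tested.

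The lactate exporter gene Slc16a3, a HIF target, was at 8.74, 8.70 and 8.44 in controls and at 8.72, 8.95 and 8.82 in mutants (difference 0.20, SE 0.09, adjusted p = 0.424). Mutant replicate 1 lay within the controls and control replicate 3 below all other arrays. Its relative Slc16a1, the broadly expressed form, differed by 0.01 (SE 0.09).

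Among the genes that set the flow, Pfkfb3 and Pfkfb4 make and break the allosteric activator of phosphofructokinase, and the PDK kinases keep pyruvate out of the mitochondria by switching off pyruvate dehydrogenase. Pdk1 was at 8.50, 8.52 and 8.30 in controls and at 8.40, 8.999 and 8.57 in mutants. Mutant replicate 2 exceeded every other array by 0.43 while mutant replicate 1 lay within the controls (difference 0.22, SE 0.15, adjusted p = 0.562), and without mutant replicate 2 the difference was 0.05. Pfkfb3 differed by 0.03 (SE 0.06). Pfkfb4 (-0.10, SE 0.05, adjusted p = 0.458) and the X-linked Pdk3 (-0.07, SE 0.04, adjusted p = 0.538) were the 2 genes whose mutant arrays all lay below all controls, by steps that did not pass. Over the 8 transporters and regulators, 6 were higher and 2 lower, with a median of 0.12, and 0.04 without mutant replicate 2.

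The 10 other hypoxia targets depended most on 1 array. With all arrays 9 were higher and 1 lower, with a median difference of 0.13. Without mutant replicate 2, 4 were higher (40%, where 55.7% of all genes were) and 6 lower, with a median of -0.01. The median deviation of the 10 genes from the control mean was 0.03, 0.35 and -0.02 in mutant replicates 1 to 3.

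Egln3 encodes an oxygen-dependent HIF hydroxylase that is itself a HIF target and so forms a feedback loop. It was at 8.67, 8.91 and 8.89 in controls and at 8.80, 10.81 and 8.74 in mutants. Mutant replicate 2 lay 1.90 above every other array, and the other 2 mutants lay within the controls. The difference was therefore 0.63 (1.54-fold, SE 0.50, adjusted p = 0.624) with all arrays and -0.05 (SE 0.09, adjusted p = 0.857) without that array.

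Bnip3, a mitophagy receptor, showed the same form, with 8.39, 8.71 and 8.59 in controls and 8.43, 9.80 and 8.67 in mutants. The difference was 0.41 (1.33-fold, SE 0.32, adjusted p = 0.616), and -0.01 (SE 0.11) without mutant replicate 2, whose value lay 1.09 above the next. Smaller steps in mutant replicate 2 alone were seen in Egln1, the main HIF hydroxylase, at 10.53 against at most 10.12 elsewhere, in the collagen prolyl hydroxylase gene P4ha1, at 10.998 against at most 10.61, and in the vascular growth factor gene Vegfa, at 10.54 against at most 10.28. Without that array the differences of Egln1, P4ha1 and Vegfa were -0.06, 0.06 and -0.01. The adipose marker genes Fabp4 and Adipoq were at 12.92 and 9.22 on this array and at most at 8.52 and 6.39 elsewhere.

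Ndrg1, a stress-response gene of epithelia and other cells, behaved otherwise. It was at 8.35, 8.25 and 8.21 in controls and at 8.56, 8.56 and 8.53 in mutants, so that the mutants lay close together and above all controls. Its difference of 0.28 (1.21-fold, SE 0.05) had the smallest p of the 32 genes (adjusted p = 0.149) and was 0.27 without mutant replicate 2 (SE 0.06, adjusted p = 0.283). A dim probe set of Ndrg1, at 5.63, differed by -0.06.

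The remaining targets had small differences. The vasodilator gene Adm differed by 0.12 (SE 0.09), the collagen hydroxylase gene P4ha2 by 0.09 (SE 0.06) and the mTOR inhibitor gene Ddit4, a target of HIF and of p53, by 0.05 (SE 0.09). The p53 target genes Cdkn1a and Ccng1 differed by 0.97 and 0.54 on the same arrays. Car9, the tumour-associated carbonic anhydrase and a sensitive HIF target, differed by -0.08 (SE 0.05); its other, dimmer probe set was at 7.39 in mutant replicate 2 against at most 6.39 elsewhere, so the probe sets of Car9 disagreed.

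**Figure D3:**
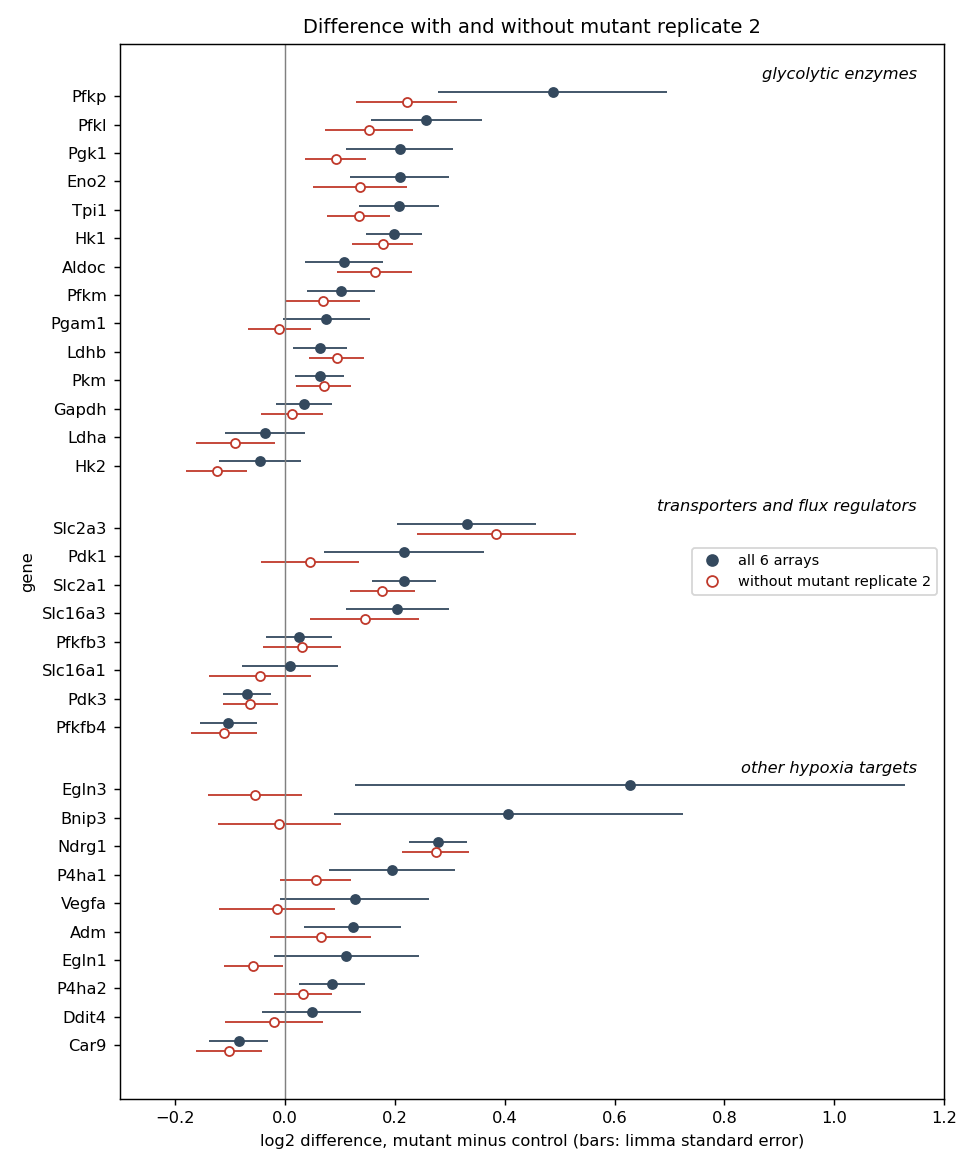
Log2 difference of each gene, mutant minus control, with all 6 arrays (filled) and without mutant replicate 2 (open); bars are limma's standard error. The bars of Egln3 and Bnip3 shrink from 0.50 and 0.32 to 0.09 and 0.11 and their differences go from 0.63 and 0.41 to -0.05 and -0.01 when the array is left out, whereas Ndrg1, Slc2a1 and Hk1 keep 0.27, 0.18 and 0.18.

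A two-sided exact permutation test over the 6 arrays gave p = 0.1 for Hk1, Tpi1, Pgk1, Pkm, Slc2a1, Ndrg1, Pfkfb4 and Pdk3, the smallest p that 3 arrays against 3 allow, and p = 0.8 for Egln3 and p = 0.5 for Bnip3. The genes at 0.1 are those whose groups did not overlap. With 3 arrays against 3 such a gene always gets this p, so the test restates the lack of overlap and adds nothing to it.

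The genes of the factor itself had differences on both sides of 0. Of 9 measured HIF subunit and regulator genes, 2 were higher and 7 lower, with a median of -0.01 (0.01 after a further quantile normalization) and 0 at an unadjusted p under 0.05 (0 by adjusted p in limma). Hif1a, the oxygen-regulated subunit, differed by -0.02 (SE 0.06), its relative Epas1 by -0.0016 (SE 0.07) and their partner Arnt by -0.01 (SE 0.05). Those with the smallest p were the asparagine hydroxylase gene Hif1an (-0.10, SE 0.06) and Hif3a (0.11, SE 0.08).

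Of 24 measured hypoxia targets outside the set, 19 were higher and 5 lower, with a median of 0.14, and 6 (25%) were higher at an unadjusted p under 0.05, where 7.34% of all genes were, with 0 lower; 0 passed by adjusted p in limma. Without mutant replicate 2 the counts were 15 and 9 (62.5% higher, where 55.7% of all genes were). The median was 0.01, where it was also 0.01 over all genes. At that p, 4 (16.7%) were higher, where 6.37% of all genes were. The smallest p were those of the glycogen targeting subunit gene Ppp1r3c (0.53, SE 0.14, adjusted p = 0.257), Cited2, a HIF target that restrains the HIF coactivator (0.20, SE 0.06, adjusted p = 0.292), and Tmem45a (0.29, SE 0.09, adjusted p = 0.314). Without mutant replicate 2 these were 0.36, 0.18 and 0.19. As in the set, some genes were high on that array alone. Ero1a was at 12.32 there against at most 10.42 elsewhere, with a difference of 0.59, and -0.09 without that array. The haem oxygenase gene Hmox1 was at 9.58 against at most 8.23 and the clock-linked repressor gene Bhlhe40 at 8.72 against at most 7.99.

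A list of isozymes of glycolysis and related enzymes outside the set included forms of liver, muscle and testis. Of its 12 measured genes, 5 were higher and 7 lower, with a median of -0.02, and 0 were at an unadjusted p under 0.05 by limma (0 adjusted). Hkdc1 (-0.14, SE 0.07) and the muscle form Pgam2 (0.22, SE 0.12) had the smallest p. Without mutant replicate 2 the median of this list was -0.02 and 1 gene was higher at that p, Pgam2 (0.33, SE 0.10). The pentose phosphate pathway had 4 higher and 2 lower of 6, with a median of 0.0074, and the citric acid cycle 12 higher and 3 lower of 15, with a median of 0.04; both had 0 genes at an unadjusted p under 0.05 and 0 by adjusted p in limma. Without mutant replicate 2 the medians of these pathways were 0.0013 and 0.01. The smallest p there were those of Pgls (0.09, SE 0.07) and Idh3b (0.11, SE 0.05).

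Genes of mitochondrial pyruvate use had 8 higher and 3 lower of 11, with a median of 0.12, and 0.04 without mutant replicate 2. At an unadjusted p under 0.05 by limma, 2 of the 11 were higher (18.2%, where 7.34% of all genes were) and 0 lower. These were Pdk4 (0.44, SE 0.14, adjusted p = 0.315) and Pdk2 (0.19, SE 0.08, adjusted p = 0.368). Pdk4 was at 6.82, 6.62 and 6.72 in controls and at 6.95, 7.51 and 7.004 in mutants. Pdk4, a kinase of fasting and fat use, was the 1 gene of the 11 with all mutants above all controls, as in 10.6% of all genes. Its difference without mutant replicate 2 was 0.26 (SE 0.07). Without that array Pdk4 was the 1 gene of the 11 that was higher at an unadjusted p under 0.05 by limma (9.09%, where 6.37% of all genes were). Pcx, the pyruvate carboxylase gene, which is strongly expressed in fat, was at 10.24 in mutant replicate 2 and at most at 8.27 elsewhere.

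**Figure D4:**
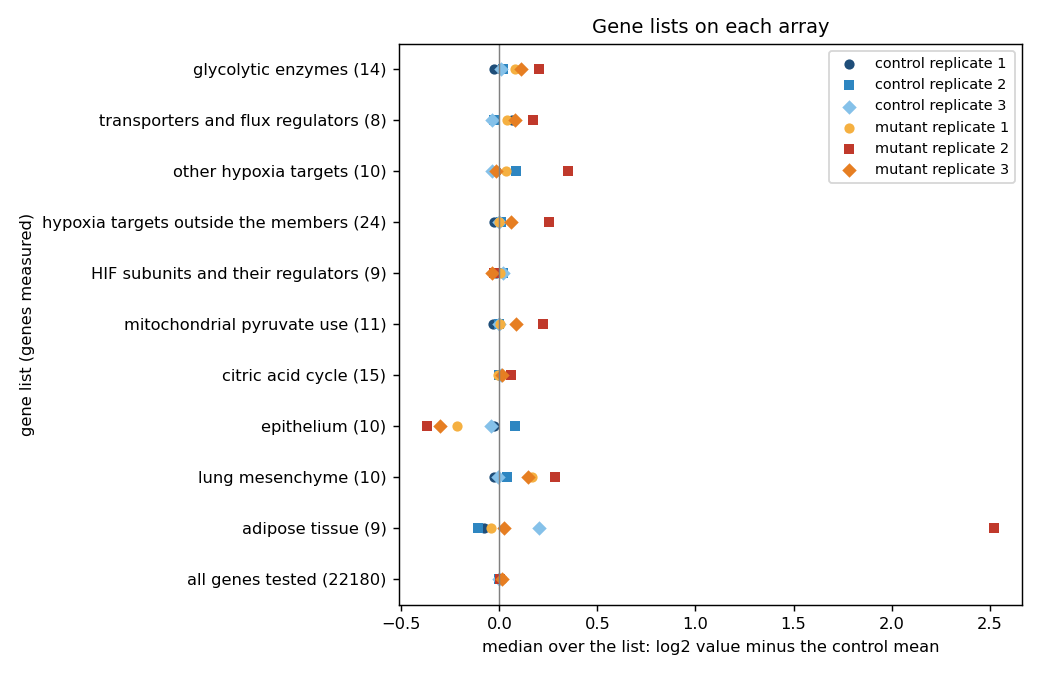
Median over each gene list of the log2 value minus the mean of the 3 control arrays, 1 point per array; the number of measured genes is in brackets. Mutant replicate 2 lies to the right in the 3 groups of the set (0.20, 0.17 and 0.35), in the hypoxia targets outside it (0.25), in mitochondrial pyruvate use (0.22) and, at 2.52, in adipose tissue genes; the HIF subunits lie at -0.03 and all genes at 0.0042.

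In mutant replicate 2 the list mean of 8 erythroid genes was 8.38, against 7.93 to 8.39 in controls and 7.997 and 8.01 on the other mutant arrays. That of 7 endothelial genes was 10.12, against 10.17 to 10.24 in controls and 10.26 and 10.15 on the other mutant arrays, and that of 6 skeletal muscle genes was 7.26, against 7.11 to 7.23 and 7.27 and 7.23. Mesothelial, liver and p53 target lists had means of 8.65, 7.21 and 9.17 on that array, against 8.42 to 8.70, 6.93 to 7.46 and 8.36 to 8.43 in controls and 8.69 to 8.83, 7.15 to 7.76 and 8.80 to 8.85 on the other mutant arrays. The mean of the p53 list was also highest in mutant replicate 2, which held the highest value of 5 of its 7 genes. Mdm2 was at 11.83 on that array against at most 10.01 elsewhere. The median deviation of the p53 list from the control mean was 0.57 in mutant replicate 2 and 0.57 in mutant replicate 3. The part of p53 targets in the values of the set was not tested.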

How the data were processed

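The log2 values of all 6 arrays were deposited in a single table. Per the submitters' processing notes, oligo and RMA were used. This method removes background, gives every array the same distribution and combines probes, so a shift common to most genes would not show and small values are compressed. The sources used here give no version, build or filter; the log2 scale was read from the values (3.55 to 14.04). Of 41345 probe sets, 23521 had 1 symbol in the platform annotation, 1814 several and 16010 none.

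From these values, each gene's brightest probe set entered a linear model of group alone (limma 3.58.1, empirical Bayes variances, R 4.3.3), with two-sided p-values adjusted by Benjamini-Hochberg over 22180 genes and a threshold of 0.05, and no gene was filtered out; the procedure was tested on simulated data. The set, its role groups, the pathway and marker lists and the rule for naming genes were chosen with earlier results of these data known. Every measured gene of the set is named; values on each array are given at an unadjusted p under 0.05, at a difference of at least 0.26, or where 1 array decides the direction or that p at a difference of at least 0.15, and pathway lists are given with up to 3 genes of smallest p. One list symbol was matched through its synonym (Ero1l, given here as Ero1a). Alternatives were each array or a pair left out, a replicate block, another normalization, averaged probe sets, a filter on dim genes, another variance model and array weights. Promoters came from RefSeq (GRCm38.p6); no coordinates are tied to the probe sets. Plots and tables were made in Python 3.11.15, the plots with matplotlib 3.10.9.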

Additional observations from a re-analysis of the deposited data

How the results depend on the processing

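In all 13 alternatives 0 genes of the set passed an adjusted p under 0.05 in limma, with 3 to 11 at an unadjusted p under 0.05, and 20 of 32 kept their direction throughout. Leaving out arrays moved the count of 8 higher genes to between 3 (without control replicate 3) and 10 (without mutant replicate 1). It was 5 when control replicate 2 was left out. Without the pair of control replicate 1 and mutant replicate 2 it was also 5 (15.6%, where 7.75% of all genes were higher). Apart from this pair and mutant replicate 2 alone, the share over all genes is not given for the alternatives. Genes whose groups did not overlap numbered 8 to 11 higher and 2 to 7 lower with fewer arrays, where fewer arrays overlap less by construction. With arrays left out, medians ran from 0.04 to 0.15 for transporters and regulators (the lowest, 0.0388, without mutant replicate 2), from -0.047 to 0.23 for other hypoxia targets, and from 0.011 to 0.20 for all genes outside the enzymes.

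Directions turned with arrays left out, with ranges of -0.14 to 0.016 for Hk2, -0.013 to 0.061 for Gapdh, -0.032 to 0.14 for Pgam1, -0.14 to 0.0068 for Ldha, -0.045 to 0.084 for Slc16a1, -0.027 to 0.072 for Pfkfb3, -0.028 to 0.26 for Vegfa, -0.095 to 0.68 for Bnip3, -0.077 to 0.13 for Ddit4, -0.078 to 0.20 for Egln1 and -0.13 to 0.98 for Egln3. Ldha also turned to 0.0047 after a further quantile normalization, Slc16a1 to -0.0095 with array weights and Car9 to 0.15 as the mean of its probe sets; the cause was not tested.

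The replicate numbers did not pair the arrays: deviations of same-numbered arrays correlated at -0.04, -0.06 and 0.07. With the number as a replicate block, 8 genes were higher at an unadjusted p under 0.05, of which 7 were among the original 8, and 0 passed the adjusted threshold.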

Other observations

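Among the hypoxia targets outside the set, 3 genes of glycogen storage were picked after their values were seen, so their values are a description with no test of the group. The glycogen synthase gene Gys1 was at 9.93, 10.05 and 10.0004 in controls and at 10.16, 10.65 and 10.07 in mutants, the branching enzyme gene Gbe1 at 9.09, 9.09 and 9.17 and at 9.39, 9.99 and 9.30, and Ppp1r3c, which brings phosphatase to glycogen, at 8.75, 8.80 and 8.97 and at 9.22, 9.72 and 9.17. In each of the 3 genes every mutant array lay above every control, as in 10.6% of all genes, and mutant replicate 2 was highest. Without mutant replicate 2 the differences were 0.12 (SE 0.06) for Gys1, 0.23 (SE 0.06) for Gbe1 and 0.36 (SE 0.08) for Ppp1r3c. None passed limma's adjusted threshold with all arrays (0 genes; adjusted p = 0.436, 0.351 and 0.257).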
